A study of Mus musculus with 10 samples.

Results

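The genes described here are 10 genes of hepatic fatty acid synthesis: the transcription factors Srebf1 and Mlxipl, the enzyme genes Acly, Acaca, Acacb, Fasn, Scd1, Elovl6 and Me1, and Thrsp. They were chosen by symbol, and all 10 were found among the 17274 genes of the deposited expression table. RNA-seq was done on 10 livers of wild-type (WT) mice, all of which ate a high-fat diet without choline in which amino acids stood in for protein (CDAHFD), a diet that produces nonalcoholic steatohepatitis, a fatty and inflamed liver. Of these, 5 came from mice that had received adeno-associated virus (AAV) encoding miR-181d-5p through a vein, and 5 from mice that had received control AAV by the same route. Strain, age, sex, AAV serotype, promoter and dose and the time on diet were not stated in the labels, and no group off the diet was analysed here. The labels number the replicates within a group and do not say that each is a separate animal, so a p-value here covers only the scatter among these samples.

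Fatty acid synthesis turns carbohydrate-derived citrate into fat in the cytosol of the hepatocyte. ATP-citrate lyase (Acly) makes acetyl-CoA, acetyl-CoA carboxylase makes malonyl-CoA, fatty acid synthase (Fasn) builds palmitate with NADPH supplied in part by malic enzyme (Me1), Elovl6 lengthens it and Scd1 adds a double bond. Srebf1 encodes SREBP-1, which is held in the endoplasmic reticulum by Scap and Insig proteins until it is cut and enters the nucleus, where it switches these genes on, and in liver its own gene responds to insulin and to LXR. Mlxipl encodes ChREBP, which does the same in response to sugar. In fatty liver disease this pathway is one source of the stored fat. Because SREBP-1 is activated by cutting, the messenger level of Srebf1 is not its activity.

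The depth was similar in all livers, with 18985912 to 20657019 gene-assigned reads in miR-181d-5p livers and 19118235 to 20337358 in control livers, as worked out from the deposited values. The table gives FPKM, a level per gene length and per assigned reads of the liver. The members were covered by at least 155 reads (Thrsp) and up to 85037 reads (Scd1) in a liver, and Scd1 alone took 0.223 to 0.446% of all reads in miR-181d-5p livers and 0.124 to 0.396% in control livers. No miR-181 gene was listed, so the delivered microRNA itself was not checked. Albumin (Alb), the defining hepatocyte product, stood at 21361 to 24205 FPKM in miR-181d-5p livers and 20759 to 24746 FPKM in control livers. The members of this pathway varied a good deal between livers of the same group, and that spread is what each difference was read against.

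The mature miR-181d-5p sequence shows which letters a target would need to hold. Its seed, bases 2 to 8, is in capitals, and miR-181a-5p, miR-181b-5p and miR-181c-5p have the same seed (RefSeq, GRCm38.p6). The mouse miR-181d-5p sequence lies at chr8:84178759-84178781 on the minus strand.
mmu-miR-181d-5p: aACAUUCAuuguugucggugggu
mmu-miR-181c-5p: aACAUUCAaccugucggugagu
mmu-miR-181a-5p: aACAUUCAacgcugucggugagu
mmu-miR-181b-5p: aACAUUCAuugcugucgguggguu

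The 3′ UTRs of the 10 genes (GENCODE vM21 on mm10) were searched on the transcript strand for TGAATGTA, an 8mer that pairs with the seed, and for TGAATGT and GAATGTA, the shorter matches that lie within it. Only the protein-coding transcript with the longest 3′ UTR was searched for each gene, so other transcripts may differ. Of the 10 genes, 3 held a match, in each case a full 8mer, and Srebf1 and the other 6 held none. The 3 sites are printed with 11 bases on either side, the 8mer in capitals.
Me1: gtagttgtaaaTGAATGTAtttacctatgc
Mlxipl: ggcatcttgcaTGAATGTAgatgtgtgtgt
Scd1: cagtttccagaTGAATGTActaatagcttt

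The Me1 site lies at chr9:86581416-86581423 on the minus strand, in exon 14 of 14, at base 1314 of a 3′ UTR of 1366 bases. The Mlxipl site lies at chr5:135137846-135137853 on the plus strand, in exon 17 of 17, at base 486 of 1022. The Scd1 site lies at chr19:44395428-44395435 on the minus strand, in exon 6 of 6, at base 2484 of 3464. Of 11770 tested genes that have a 3′ UTR, 23.0% held a match and 5.93% an 8mer. These letters are a description and not evidence of binding. All 3 genes with the letters had a higher mean in miR-181d-5p livers than in control livers, with log2 differences given below.

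None of the 10 genes differed between the groups at an adjusted p under 0.05, and in none were the 5 miR-181d-5p livers apart from the 5 control livers. Of the 10, 8 had a higher mean log2 level in miR-181d-5p livers, by 0.10 (Acaca) to 0.75 (Srebf1) on the log2(FPKM + 1) scale, and Acly and Acacb had a slightly lower one, although Acacb was higher with quantile normalization and Acly with quality-weighted voom. The median difference of the 10 was 0.33, against -0.02 over the 12053 genes tested, of which 45.5% were higher. The test was limma on log2(FPKM + 1), two-sided, with Benjamini-Hochberg adjustment over all 12053 genes, and 0 of these, 0%, passed the threshold; the lowest adjusted p was 0.142. At an unadjusted p under 0.05, Srebf1 and Me1 were higher, 2 of 10, beside 607 of all genes or 5.04%, and 0 of 10 were lower, beside 1161 genes or 9.63%. Groups did not overlap for 123 genes that were higher, 1.02%, and for 175 that were lower, 1.45%, and for 0 of the 10 members in either direction. Another scaling moved this background: with each liver shifted to a common median 1065 genes were higher and 938 lower at an unadjusted p under 0.05, with quantile normalization 997 and 942, and with every liver scaled to the same FPKM sum 347 and 1266. The count of 2 members also moved with single livers. It rose to 7 without miR-181d-5p liver 5, 6 without control liver 1 and 4 without control liver 4, and was never below 2 with a liver left out. On whole reads worked out from the table, limma voom called 0 genes, and voom with a quality weight per liver called 8, none of them a member.

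**Figure D1:**
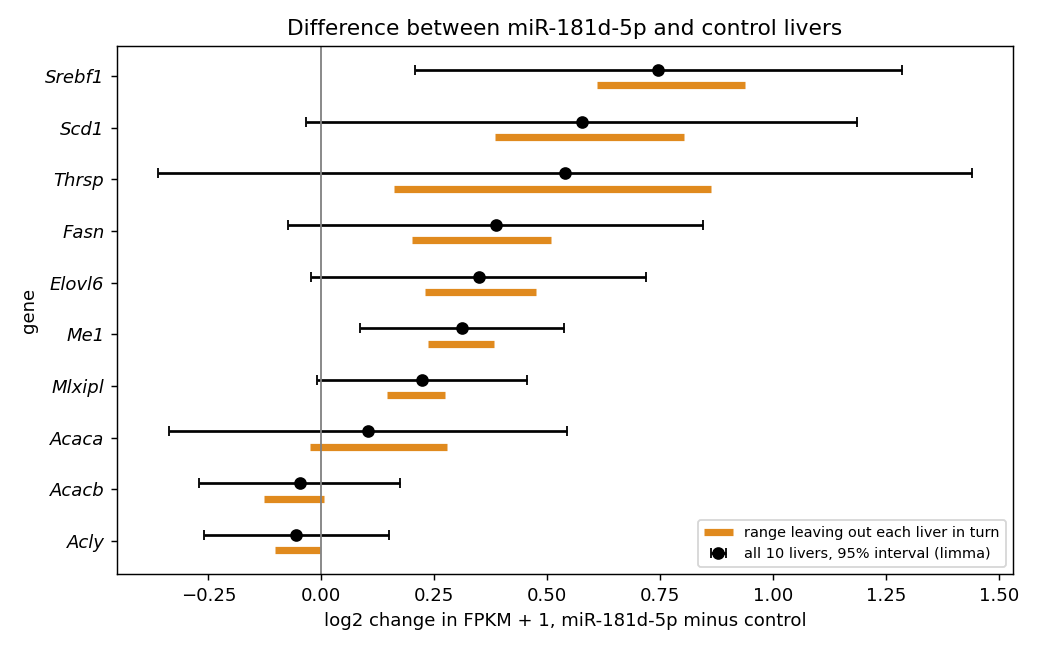
Difference between miR-181d-5p and control livers for each gene, in log2(FPKM + 1). Points are the difference over all 10 livers with its 95% interval from limma, and orange bars span the values with each liver left out in turn; the intervals of Srebf1 and Me1 lie above 0, those of the other 8 genes include 0, and the bars of Acaca and Acacb cross 0.

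Srebf1 was the member with the largest difference. Its level in miR-181d-5p livers 1 to 5 was 51.0, 77.4, 57.2, 58.0 and 30.6 FPKM, against 46.5, 27.0, 22.2, 23.2 and 43.6 FPKM in control livers 1 to 5. Thus 4 of 5 miR-181d-5p livers lay above every control liver, while miR-181d-5p liver 5 lay among the controls, below control livers 1 and 5. The means were 54.9 ± 16.8 and 32.5 ± 11.6 FPKM (SD, n = 5 each), and the log2 difference was 0.75 with a standard error of 0.25 and a 95% interval of 0.21 to 1.29. The unadjusted limma p was 0.0105, the adjusted p 0.250, and the exact two-sided permutation p over all labellings of the livers 0.0476, where 0.00794 is the smallest that this design can give. The exact p lay between 0.0714 and 0.103 when any of control livers 2, 3 and 4 or miR-181d-5p livers 1 to 4 was left out. The gene lies at chr11:60199089-60222581 (mm10) on the minus strand and overlaps Rai1 on the other strand by 109 exonic bases; the labels do not state if counting used strand, so reads of the shared bases may belong to either gene. The table has 1 value per gene, so the SREBP-1a and SREBP-1c transcripts cannot be told apart.

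Mlxipl, the gene for ChREBP (chr5:135089890-135138382, plus strand), differed less. Its levels were 15.5, 11.9, 13.0, 14.7 and 12.2 FPKM in miR-181d-5p livers 1 to 5, against 13.2, 10.5, 8.95, 12.7 and 11.7 FPKM in control livers 1 to 5. All 5 miR-181d-5p livers lay above the control median and 2 above every control liver, while the other 3 lay within the span of the control livers. The log2 difference was 0.22 with a standard error of 0.11, an adjusted p of 0.359 by limma and an exact permutation p of 0.103. Without control liver 3, which had the lowest Mlxipl of the 10, it was 0.15.

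The genes of the steps from citrate to malonyl-CoA did not separate the groups. Acly (chr11:100476353-100528000, minus strand), whose enzyme splits citrate into acetyl-CoA, stood at 15.6, 15.6, 15.97, 13.2 and 13.8 FPKM in miR-181d-5p livers 1 to 5, against 17.8, 17.98, 13.4, 14.1 and 14.3 FPKM in control livers 1 to 5. Its range over the 10 livers was narrow, 1.36-fold from lowest to highest, and the log2 difference was -0.06 with a 95% interval of -0.26 to 0.15 (adjusted p by limma 0.802). Acaca (chr11:84129672-84401651, plus strand), the gene of the cytosolic acetyl-CoA carboxylase that feeds synthesis, stood at 8.09, 9.24, 9.90, 9.98 and 7.94 FPKM in miR-181d-5p livers, against 14.1, 10.9, 5.59, 8.01 and 5.51 FPKM in control livers. All 5 miR-181d-5p livers lay inside the span of the controls, whose SD of 3.68 FPKM compared with 0.973 FPKM in miR-181d-5p livers. The log2 difference of Acaca was 0.10 with a 95% interval of -0.34 to 0.54 (adjusted p by limma 0.833), and it was -0.02 without control liver 3 and -0.03 without control liver 5.

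Acacb, the carboxylase form at mitochondria whose malonyl-CoA restrains fatty acid oxidation, was the lowest of the 10 genes (chr5:114146535-114250761, plus strand). It stood at 1.58, 2.51, 1.42, 1.89 and 1.81 FPKM in miR-181d-5p livers 1 to 5, against 2.08, 2.07, 1.62, 2.17 and 1.68 FPKM in control livers 1 to 5. The control livers lay inside the span of the miR-181d-5p livers. The log2 difference was -0.05 with a 95% interval of -0.27 to 0.18 (adjusted p by limma 0.849), and it was 0.01 without miR-181d-5p liver 3.

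The genes that build, lengthen and desaturate the fatty acid had higher means in miR-181d-5p livers, each with overlap. Fasn (chr11:120805846-120824547, minus strand) stood at 17.8, 25.7, 22.8, 20.9 and 13.9 FPKM in miR-181d-5p livers 1 to 5, against 21.1, 19.4, 8.54, 14.5 and 14.3 FPKM in control livers 1 to 5. Livers of both groups were interleaved: miR-181d-5p liver 5 lay below all but control liver 3, and control livers 1 and 2 lay above miR-181d-5p liver 1. The log2 difference of Fasn was 0.39 with a standard error of 0.21 (adjusted p by limma 0.405, exact permutation p 0.190), and 0.20 without control liver 3, its lowest liver.

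Elovl6, the elongase that takes palmitate to stearate, had the same order of livers within each group on a lower level (chr3:129532355-129638495, plus strand). It stood at 8.78, 11.3, 10.1, 9.93 and 6.09 FPKM in miR-181d-5p livers 1 to 5, against 9.08, 8.59, 4.69, 6.99 and 5.99 FPKM in control livers 1 to 5. Here 3 of 5 miR-181d-5p livers lay above every control liver. The log2 difference was 0.35 with a standard error of 0.17 (adjusted p by limma 0.365, exact permutation p 0.127). It was 0.23 without control liver 3, and without miR-181d-5p liver 5 it was 0.47 with an exact permutation p of 0.0397.

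Scd1, the desaturase that makes oleate, was the most abundant of the 10 genes (chr19:44394455-44407879, minus strand). It stood at 512, 685, 773, 923 and 462 FPKM in miR-181d-5p livers 1 to 5, against 819, 256, 357, 575 and 363 FPKM in control livers 1 to 5. Control liver 1 exceeded 4 of the 5 miR-181d-5p livers, while 3 control livers lay below every miR-181d-5p liver. The means were 671 ± 189 and 474 ± 225 FPKM (SD, n = 5 each), with a log2 difference of 0.58 and a standard error of 0.28 (adjusted p by limma 0.363, exact permutation p 0.135). Without control liver 1 the difference was 0.80 with an exact permutation p of 0.0397, and without control liver 2 it was 0.38. Scd1 has close relatives, Scd2, Scd3 and Scd4, and the labels do not state how reads that match several copies were counted.

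Me1, the cytosolic malic enzyme that yields NADPH, was, beside Srebf1, the other gene whose interval lay above 0 (chr9:86581371-86695953, minus strand). It stood at 23.0, 26.7, 23.7, 23.2 and 29.1 FPKM in miR-181d-5p livers 1 to 5, against 24.6, 16.1, 20.6, 20.7 and 18.9 FPKM in control livers 1 to 5. Control liver 1 lay among the miR-181d-5p livers and the other 4 control livers lay below all of them. The means were 25.1 ± 2.65 and 20.2 ± 3.09 FPKM (SD, n = 5 each), with a log2 difference of 0.31, a standard error of 0.10 and a 95% interval of 0.09 to 0.54. The unadjusted limma p was 0.0108, the adjusted p 0.250 and the exact permutation p 0.0317. That exact p was 0.0714 with every liver scaled to the same FPKM sum, and it was 0.0556 to 0.0714 when any of control livers 2 to 5 or miR-181d-5p livers 2 and 5 was left out.

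Thrsp encodes Spot 14, a small protein induced with lipogenesis, and varied most of all 10 genes (chr7:97412938-97417730, minus strand). It stood at 15.0, 55.5, 17.5, 21.3 and 7.08 FPKM in miR-181d-5p livers 1 to 5, against 9.29, 14.4, 11.3, 8.39 and 24.3 FPKM in control livers 1 to 5. The highest and the lowest of the 10 livers were both miR-181d-5p livers, 7.84-fold apart. The log2 difference was 0.54 with a standard error of 0.42 and a 95% interval of -0.36 to 1.44 (adjusted p by limma 0.547, exact permutation p 0.349). It was 0.16 without miR-181d-5p liver 2 and 0.86 without miR-181d-5p liver 5.

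**Figure D2:**
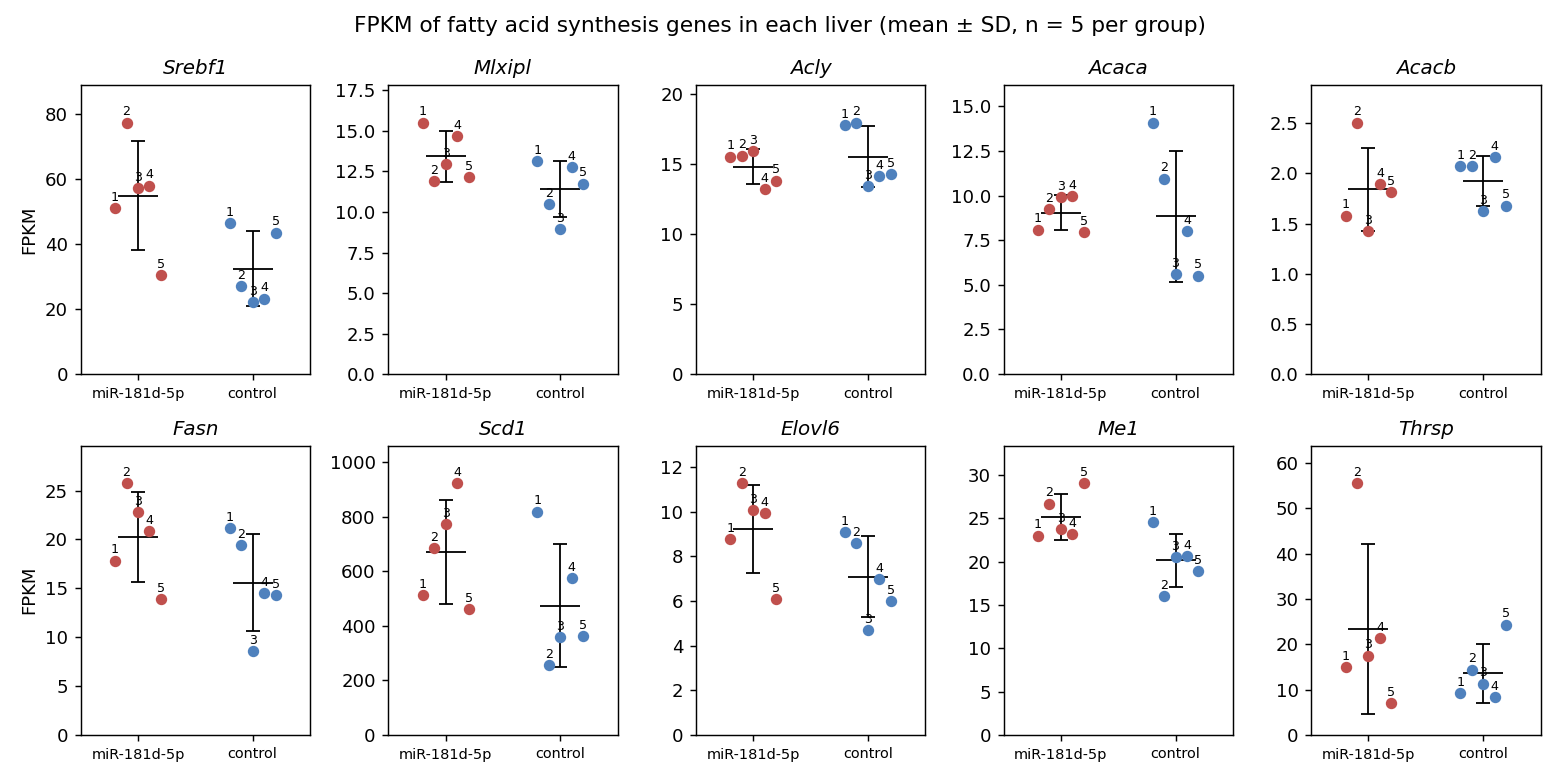
FPKM of each of the 10 genes in each liver, miR-181d-5p at left in red and control at right in blue, with the liver's number, the group mean and the SD (n = 5 each); each vertical axis starts at 0 and has its own scale. The groups overlap in every panel, and miR-181d-5p liver 5 sits at the level of the controls for Srebf1, Fasn, Elovl6 and Scd1 and is the highest liver for Me1.

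By level, Scd1 stood far above the other 9 genes in both groups, at 671 FPKM in miR-181d-5p livers and 474 FPKM in control livers. In miR-181d-5p livers Srebf1 was next at 54.9 FPKM, with all livers above those of Me1 although Thrsp in liver 2 reached into its range, followed by Me1 at 25.1, Thrsp at 23.3, Fasn at 20.2, Acly at 14.8 and Mlxipl at 13.4 FPKM, which ran into each other. In those livers Elovl6 at 9.22 and Acaca at 9.03 FPKM overlapped, and Acacb at 1.84 FPKM was apart. In control livers the order was Scd1, Srebf1 at 32.5, Me1 at 20.2, Fasn at 15.6, Acly at 15.5, Thrsp at 13.5, Mlxipl at 11.4, Acaca at 8.83, Elovl6 at 7.07 and Acacb at 1.92 FPKM, and there Srebf1 overlapped Me1. The order rests on the gene lengths that the authors used, which the labels do not state. Lengths worked out from the values equalled the merged exon length of GENCODE vM21 for 0 of the 10 genes. They were 7850 against 5279 bases for Acly, 10368 against 17074 for Acaca and 1102 against 2189 for Thrsp. The order of genes at similar levels and the ratios between genes may therefore change with other lengths. The carboxylase forms kept a ratio of Acaca to Acacb of 5.08 ± 1.22 in miR-181d-5p livers and 4.498 ± 1.51 in control livers, and the ratio of Scd1 to Fasn was 33.3 ± 6.78 and 31.8 ± 12.2 in the same groups (SD, n = 5 each).

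The livers differed within each group in a way that ran across several of the genes. In the miR-181d-5p group, liver 2 was the highest for 5 genes, Srebf1, Acacb, Fasn, Elovl6 and Thrsp, and liver 5 the lowest for 6, Srebf1, Acaca, Fasn, Scd1, Elovl6 and Thrsp. In the control group, liver 1 was the highest for 7 genes, all except Acly, Acacb and Thrsp, and liver 3 the lowest for 6, Srebf1, Mlxipl, Acly, Acacb, Fasn and Elovl6. The SD of log2(FPKM + 1) was larger in control livers for 8 of the 10 genes, Acacb and Thrsp being the exceptions, and for 76.1% of all genes tested.

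**Figure D3:**
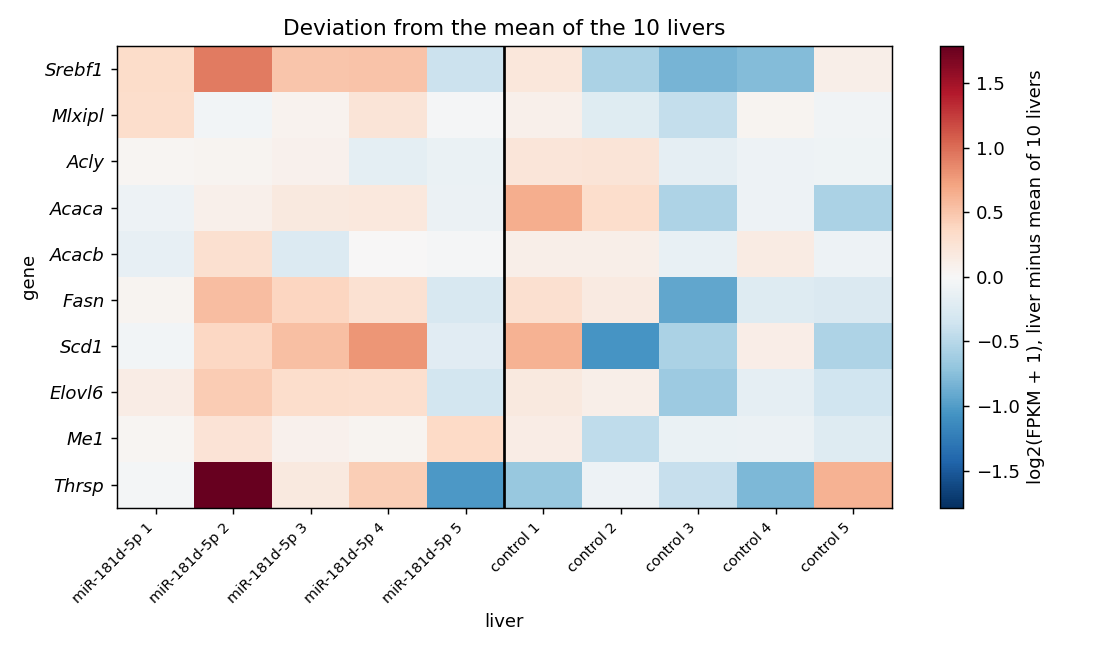
Level of each gene in each liver as log2(FPKM + 1) minus the gene's mean over the 10 livers, red above and blue below, with miR-181d-5p livers left of the line and control livers right of it. miR-181d-5p liver 5 and control liver 3 are blue for Srebf1, Fasn and Elovl6, and miR-181d-5p liver 2 is red for most genes, most of all for Thrsp.

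With the group means removed, Fasn and Elovl6 were the pair that varied most alike over the 10 livers, with a Pearson r of 0.97 and a Spearman rho of 0.98, and r was 0.94 without the 2 livers farthest from the median of Fasn. The next closest pairs were Acaca with Elovl6 (r 0.80, rho 0.87) and with Fasn (r 0.79, rho 0.84). Acly followed, with Fasn (r 0.76, rho 0.71), Acaca (r 0.75, rho 0.62) and Elovl6 (r 0.73, rho 0.68). Within control livers alone, Acly gave r of 0.89, 0.91 and 0.91 with Fasn, Acaca and Elovl6. Within miR-181d-5p livers alone, r was 0.47, 0.001 and 0.43, so the likeness of Acly came mostly from the control livers. Srebf1 came after these pairs and varied with Fasn (r 0.72, rho 0.73), Thrsp (r 0.72, rho 0.53) and Elovl6 (r 0.68, rho 0.71). Leaving out the 2 livers farthest from the median of Srebf1 gave r of 0.54, 0.84 and 0.40 for Srebf1 with Fasn, Thrsp and Elovl6. For the same pairs r was 0.97, 0.95 and 0.99 within miR-181d-5p livers and 0.57, 0.40 and 0.42 within control livers. Me1 and Srebf1 gave an r of 0.03, and Me1 was the member least like the average of the 10, with r 0.19, against 0.93 for Fasn and 0.91 for Elovl6. Each member is itself part of that average, which raises its r, whereas genes outside the 10 are not part of it. All pairs share the same libraries, and these values are descriptions with no test. Outside the 10 genes, those most like their average over the 10 livers were Umps (r 0.96), Ifrd2 (0.93), Tmem44 (0.92), Srbd1 (0.92) and Mettl15 (0.92), picked as the highest of all genes tested other than predicted genes and RIKEN clones.

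Promoter windows of Srebf1 and of Fasn, Elovl6 and Thrsp, the members with the highest r to Srebf1, are printed so that their letters can be compared. Thrsp itself gave an r of only 0.43 with Fasn and 0.43 with Elovl6. The windows run from 250 bases before to 50 after the start in the direction of the gene (RefSeq, GRCm38.p6), with CCAAT or its reverse complement ATTGG in capitals.
Srebf1, chr11:60210422-60210721, minus strand: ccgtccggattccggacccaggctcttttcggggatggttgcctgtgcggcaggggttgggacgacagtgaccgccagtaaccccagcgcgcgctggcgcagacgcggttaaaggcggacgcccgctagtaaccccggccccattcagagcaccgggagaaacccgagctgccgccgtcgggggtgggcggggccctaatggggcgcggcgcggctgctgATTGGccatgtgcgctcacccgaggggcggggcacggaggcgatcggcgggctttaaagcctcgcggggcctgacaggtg
Fasn, chr11:120824498-120824797, minus strand: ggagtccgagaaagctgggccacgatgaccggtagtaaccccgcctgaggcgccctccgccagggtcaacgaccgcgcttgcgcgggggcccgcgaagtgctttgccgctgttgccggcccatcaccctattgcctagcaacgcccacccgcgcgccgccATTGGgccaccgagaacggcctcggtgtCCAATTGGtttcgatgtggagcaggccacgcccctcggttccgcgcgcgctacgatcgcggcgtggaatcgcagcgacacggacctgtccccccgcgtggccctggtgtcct
Elovl6, chr3:129532136-129532435, plus strand: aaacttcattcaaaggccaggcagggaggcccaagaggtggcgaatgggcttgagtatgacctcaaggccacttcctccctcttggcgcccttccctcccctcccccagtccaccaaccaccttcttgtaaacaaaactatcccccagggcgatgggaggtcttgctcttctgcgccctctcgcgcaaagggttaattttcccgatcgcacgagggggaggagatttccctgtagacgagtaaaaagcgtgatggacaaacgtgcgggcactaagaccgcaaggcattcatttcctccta
Thrsp, chr7:97417501-97417800, minus strand: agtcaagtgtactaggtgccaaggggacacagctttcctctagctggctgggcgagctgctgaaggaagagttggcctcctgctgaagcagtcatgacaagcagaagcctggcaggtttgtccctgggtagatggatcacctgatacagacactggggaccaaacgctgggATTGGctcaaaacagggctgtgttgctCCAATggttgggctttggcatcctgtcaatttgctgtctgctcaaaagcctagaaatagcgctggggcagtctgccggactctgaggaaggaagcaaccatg

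CCAAT is the sequence bound by the NF-Y complex, a partner of SREBP. On both strands, it was found in 8 of the 13 windows of 9 members, covering 7 genes, and in 37.4% of 32851 windows of all genes. The Fasn window held 3 matches, at -90, -62 and -59 from the start, the last of which overlaps the one before it on the other strand by 2 bases as CCAATTGG. The Thrsp window held matches at -79 and -52, the Srebf1 window shown held 1 at -30, and the Elovl6 window held none. The E-box CACGTG, which reads the same on both strands, was found in 1 member window, of Mlxipl, and in 7.15% of all windows. The sterol regulatory element, searched as TCACNCCAC on both strands, was also found in 1 member window, at another Mlxipl start, and in 1.24% of all. Apart from the pair in Fasn no matches in these windows overlapped. These are matches of letters in a short window and say nothing of binding.

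Genes that control SREBP processing and transcription did not separate the groups as a list. Of 26 tested, 17 were higher and 9 lower, with a median log2 difference of 0.04, and 0 passed the adjusted threshold by limma. At an unadjusted limma p under 0.05, 1 was higher and 2 lower, beside 5.04% and 9.63% of all genes tested. Groups did not overlap for 1.02% (higher) and 1.45% (lower) of all genes tested. Insig1, which retains SREBP in the endoplasmic reticulum and is itself an SREBP target, stood at 37.2 ± 8.92 FPKM in miR-181d-5p livers and 30.2 ± 11.02 FPKM in control livers (SD, n = 5 each), a log2 difference of 0.34 with an adjusted p of 0.490 by limma. Insig2 had a log2 difference of 0.13, Scap, the escort protein, 0.02, Nr1h3, the LXRα gene, 0.02, and Mlx, the partner of ChREBP, 0.08, all with adjusted p of at least 0.577 by limma. Nfya, a subunit of NF-Y, did not overlap between groups, at 6.47 to 7.55 FPKM in miR-181d-5p livers and 8.22 to 10.3 FPKM in control livers, with a log2 difference of -0.35 and an adjusted p of 0.221 by limma. The other NF-Y subunits lay in the other direction: Nfyb stood at 10.4 ± 0.611 and 9.13 ± 0.844 FPKM in the miR-181d-5p and the control group (log2 difference 0.17, adjusted p by limma 0.331), and Nfyc, named after its values were seen, at 5.67 to 6.13 and 5.17 to 5.52 FPKM with no overlap (log2 difference 0.12, adjusted p by limma 0.385). Mlxip, a relative of Mlxipl, stood at 2.37 ± 0.313 FPKM in miR-181d-5p livers and 3.32 ± 0.804 FPKM in control livers, with a log2 difference of -0.34 and an adjusted p of 0.259 by limma.

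The supply of citrate, acetyl-CoA and NADPH had genes on both sides. Of 18 tested, 10 were higher and 8 lower, with a median log2 difference of 0.05 and 0 past the adjusted threshold by limma. At an unadjusted limma p under 0.05, 3 were higher and 3 lower, beside 5.04% and 9.63% of all genes tested. Groups did not overlap for 1.02% (higher) and 1.45% (lower) of all genes tested. Slc25a1, the carrier that exports citrate from mitochondria, stood at 99.6 to 112 FPKM in miR-181d-5p livers and 86.2 to 99.6 FPKM in control livers without overlap, although the nearest livers of the groups were level to 3 digits, with a log2 difference of 0.15 and an adjusted p of 0.315 by limma. Idh1, which makes cytosolic NADPH, stood at 134 to 152 FPKM in miR-181d-5p livers and 122 to 133 FPKM in control livers, also without overlap, with a log2 difference of 0.17 and an adjusted p of 0.254 by limma. Acat2, a cytosolic acetyl-CoA acetyltransferase, stood at 17.4 ± 1.44 FPKM in miR-181d-5p livers and 14.6 ± 1.185 FPKM in control livers, and G6pdx, which opens the pentose phosphate pathway, at 13.9 ± 2.40 FPKM in miR-181d-5p livers and 17.1 ± 1.54 FPKM in control livers. Acss2, which makes acetyl-CoA from acetate, had a log2 difference of 0.11 and an adjusted p of 0.460 by limma. The other 2 genes lower at an unadjusted p under 0.05 were Me2 and Acss1, named after their values were seen.

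Among glycolytic and carbohydrate-response genes, 13 of 20 tested were higher and 7 lower, with a median log2 difference of 0.08. By limma, 0 passed the adjusted threshold. At an unadjusted limma p under 0.05, 4 were higher and 2 lower, beside 5.04% and 9.63% of all genes tested. Pklr, the liver pyruvate kinase gene and a ChREBP target, stood at 46.4 ± 5.59 FPKM in miR-181d-5p livers and 36.6 ± 6.23 FPKM in control livers, a log2 difference of 0.34 with an adjusted p of 0.269 by limma. Txnip, another ChREBP target, had the opposite sign, at 64.9 ± 16.4 FPKM in miR-181d-5p livers and 87.7 ± 11.1 FPKM in control livers (log2 difference -0.45, adjusted p by limma 0.250). Gpd1, which makes the glycerol backbone of triglyceride, stood at 134 ± 12.2 FPKM in miR-181d-5p livers and 110 ± 17.9 FPKM in control livers. The others at an unadjusted p under 0.05, named after their values were seen, were Khk and Gckr, higher, and Pfkfb2, lower.

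Of 15 elongase and desaturase genes tested of 17 listed, 10 were higher and 5 lower, with a median log2 difference of 0.05, and 0 passed either the adjusted threshold by limma or an unadjusted p under 0.05. Fads1, the delta-5 desaturase gene, stood at 124 ± 21.2 FPKM in miR-181d-5p livers and 103 ± 24.6 FPKM in control livers, and Fads2, the delta-6 desaturase gene, at 398 ± 84.0 FPKM in miR-181d-5p livers and 349 ± 71.9 FPKM in control livers. Elovl5, which lengthens polyunsaturated fatty acids, had a log2 difference of 0.11 and Elovl7 one of -0.21, with adjusted p of 0.469 and 0.396 by limma.

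Of 11 genes listed as glycerolipid targets of Srebf1, 9 were tested, of which 7 were higher and 2 lower, with a median log2 difference of 0.12. By limma, 0 passed the adjusted threshold. At an unadjusted limma p under 0.05, 2 were higher and 1 lower, beside 5.04% and 9.63% of all genes tested. Lpin1, the phosphatidate phosphatase gene, stood at 8.32 ± 3.10 FPKM in miR-181d-5p livers and 16.3 ± 4.78 FPKM in control livers, a log2 difference of -0.89 with an adjusted p of 0.221 by limma. Agpat2 stood at 109 ± 15.6 FPKM in miR-181d-5p livers and 87.1 ± 6.01 FPKM in control livers, and Acsl5, an acyl-CoA synthetase gene, at 92.6 ± 3.25 FPKM in miR-181d-5p livers and 83.9 ± 5.73 FPKM in control livers. Gpam, which starts glycerolipid synthesis, had a log2 difference of 0.14 and an adjusted p of 0.565 by limma. Pnpla3, a strong SREBP-1 target in mouse liver, stood at 0.105 ± 0.0286 FPKM in miR-181d-5p livers and 0.0844 ± 0.0171 FPKM in control livers, too low to be tested.

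Of 20 cholesterol synthesis and uptake genes that follow Srebf2, 16 were higher and 4 lower, with a median log2 difference of 0.07. By limma, 0 passed the adjusted threshold. At an unadjusted limma p under 0.05, 1 was higher and 0 lower, beside 5.04% and 9.63% of all genes tested. The higher gene was Sc5d, at 51.4 ± 5.43 FPKM in miR-181d-5p livers and 40.4 ± 6.86 FPKM in control livers (log2 difference 0.35, adjusted p by limma 0.250). Hmgcs1, at the head of the pathway, had a log2 difference of 0.19. In these lists, too, no median was as high as the 0.33 of the 10 fatty acid synthesis genes, but the 10 genes were chosen with earlier results known, and the lists were not tested against each other.

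**Figure D4:**
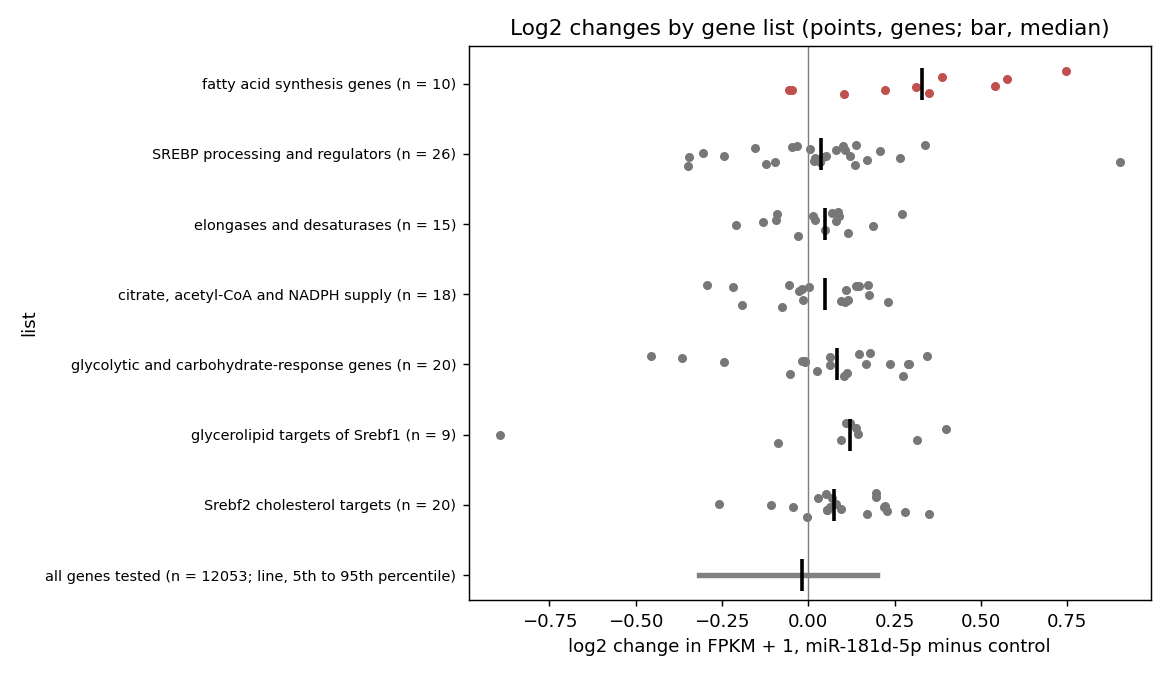
Log2 differences, miR-181d-5p minus control, of the 10 fatty acid synthesis genes (red) and of 6 lists of related genes (grey), with the median of each as a black bar; the lowest line spans the 5th to 95th percentile of all 12053 genes tested. The 10 genes have a median of 0.33 and the 6 lists medians of 0.04 to 0.12, and Lpin1 is the point at -0.89.

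Markers of several other cell types had lower means in miR-181d-5p livers than in control livers. The summed level of 8 hepatocyte markers was 33505 to 38184 FPKM in miR-181d-5p livers and 31922 to 38654 FPKM in control livers, with 5 markers higher and 3 lower. All 7 stellate cell and fibroblast markers were lower, with sums of 306 to 404 FPKM in miR-181d-5p livers and 408 to 559 FPKM in control livers, and so were all 5 cholangiocyte markers, with sums of 110 to 363 and 266 to 498 FPKM in the same groups. The cholangiocyte sum was mostly Spp1, named after its values were seen, with means of 204 FPKM in miR-181d-5p livers and 329 FPKM in control livers. No other cholangiocyte marker had a mean above 12.3 FPKM in either group. Of macrophage markers 5 of 6 were lower, with sums of 404 to 535 FPKM in miR-181d-5p livers and 508 to 616 FPKM in control livers, of endothelial markers 3 of 5, with sums of 101 to 107 and 98.9 to 117 FPKM, and of T and B cell markers 3 of 4 tested, with sums of 14.0 to 19.6 and 16.4 to 25.0 FPKM. None of these passed the adjusted threshold by limma. At an unadjusted limma p under 0.05, 5 stellate, 4 cholangiocyte, 3 macrophage, 2 endothelial and 0 T and B cell markers were lower, beside 9.63% of all genes tested. In the other direction 1 hepatocyte marker was higher, beside 5.04% of all genes tested. Adipocytes also run this pathway: their defining markers Adipoq, Plin1 and Cfd did not exceed 0.0556 FPKM in any liver, and Fabp4, which macrophages and endothelium also express, stood at 30.5 to 41.2 FPKM in miR-181d-5p livers and 27.9 to 58.7 FPKM in control livers. In bulk tissue, fewer cells of a type and less RNA per cell cannot be told apart, and the part of these shifts in the values of the 10 genes was not tested.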

How the data were processed

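Liver RNA of 5 miR-181d-5p and 5 control samples was sequenced from TruSeq Stranded mRNA libraries, per the labels' protocols. The authors deposited FPKM per gene and liver; the submitters' processing notes name, without role or order, DESeq2 1.18.1, HTSeq 0.13.5, HISAT2 2.2.1, Trimmomatic 0.38, FastQC 0.11.9, R 3.4.1 and mm10. Whole reads (within 0.02 of a read) were recovered for 17216 of 17274 genes, a further 57 being at 0 in all livers, and gave the totals and the voom alternatives.

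The 12053 genes (all 10 members among them) whose FPKM averaged 0.5 or more were fitted as log2(FPKM + 1) with limma 3.58.1 (R 4.3.3, eBayes with trend, group as the only term, two-sided, Benjamini-Hochberg, threshold 0.05). The scale understates differences of low genes such as Acacb. Exact two-sided permutation p-values of single members are not adjusted. The fit was tested on simulated data. Python 3.11.15 was used for the rest. The members' limma differences and the limma call counts were refitted with other pseudocounts, filters, scalings, weights, voom, a replicate block and each liver left out. The exact p-values were recomputed with the other pseudocounts and scalings and with each liver left out. Ratios, co-variation, marker sums and counts of groups that did not overlap were not redone. No livers of a group agreed within counting noise (lowest chi-square per degree of freedom 9.51).

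The members and lists were chosen with earlier results of these data known. Named beside the 10 members were the 3 genes of smallest p in each list, 14 genes for their place in the pathway, and the 5 genes most like the members; other names are said to be chosen after their values were seen, and 2 of the genes the rule names are not reported here. Promoter windows and miRNAs come from RefSeq (GRCm38.p6) and 3′ UTRs from GENCODE vM21.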

Additional observations from a re-analysis of the deposited data

Results flagged for a closer look

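For the 44 genes named by rule, 88 groups of 5 livers were examined for a liver far from the others, and 2 were found, where chance alone gives about 1 in 20 groups. None of the 20 groups of the 10 fatty acid synthesis genes was among them. Lpin1 was highest in miR-181d-5p liver 5, at 13.7 FPKM, far above the next miR-181d-5p liver at 7.87 FPKM. Pklr was lowest in the same liver, at 36.5 FPKM, far below the next at 47.8 FPKM. That liver was also the lowest of its group for Srebf1, Acaca, Fasn, Scd1, Elovl6 and Thrsp.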

How the results depend on the processing

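Across 22 alternatives 0 of the 10 genes passed the adjusted threshold by limma in any, and Srebf1, Mlxipl, Fasn, Scd1, Elovl6, Me1 and Thrsp kept a positive difference in all. Adjusted p-values by limma ran from 0.116 to 0.504 for Srebf1 and from 0.125 to 0.501 for Me1. The sign turned for Acly with voom and quality weights (0.047), for Acacb with quantile normalization (0.033, exact permutation p 0.786) and without miR-181d-5p liver 3 (0.0070), and for Acaca without control liver 3 (-0.021) and control liver 5 (-0.025). With each liver left out in turn, Acacb ran from -0.126 to 0.0070 (exact permutation p 0.159 to 0.944) and Acaca from -0.025 to 0.277 (exact permutation p 0.214 to 0.960). The count of all genes past the threshold, 0 as reported, was 8 with voom and quality weights and 0 to 3 with a liver left out. The count of members higher at an unadjusted p under 0.05, 2 as reported, was 4 with quantile normalization, with livers shifted to a common median, with array weights and with voom, 5 with voom and quality weights, and 2 to 7 with a liver left out. The cause of these shifts was not tested.

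Livers with the same replicate number were not alike between the groups, with correlations of their deviations between -0.28 and 0.01. These correlations cannot exclude a pairing in the design. With the number as a replicate block, 1 gene in all passed the threshold and 5 members were higher at an unadjusted p under 0.05; no member passed. Each member had at least 155 reads in every liver, the lowest being Thrsp. Counting noise was not compared with the spread between livers for single members.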
